A study of Mus musculus with 9 samples.

Results

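The 8 genes Rgs1, Rgs2, Rgs3, Rgs10, Rgs14, Rgs16, Rgs18 and Rgs19 encode regulators of G protein signalling (RGS proteins). They were taken by gene name from a table of 26146 genes and followed across 9 poly(A) RNA libraries of RAW264.7 cells, a transformed mouse macrophage line. There were 3 libraries in each of 3 groups, M, ET and Normal. By sample title, M cells received lipopolysaccharide (LPS, a glycolipid of Gram-negative bacteria that activates macrophages) plus an extract used in Traditional Chinese Medicine, ET cells received LPS, and Normal cells received neither. The library names attached to the same samples exchange the treatments of M and ET, so each group is called here by the name of its table columns, and the direction of the extract's effect rests on which label is right. Neither the plant, the doses nor the exposure time is stated in the labels, and nothing says that the 3 libraries of a group came from separate cultures, so p-values measure the spread between libraries, which may be technical.

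RGS proteins act on the alpha subunits of heterotrimeric G proteins. A receptor bound by its ligand loads the alpha subunit with GTP, and an RGS protein speeds the hydrolysis of that GTP, which ends the signal. In macrophages and other leukocytes the receptors upstream include those for chemokines, complement fragments, lipids and nucleotides. Small RGS proteins of the R4 subfamily (Rgs1, Rgs2, Rgs3, Rgs16 and Rgs18) are little more than the RGS domain, although Rgs3 also has long forms. Rgs10 and Rgs14 belong to the R12 subfamily, and Rgs19, also called GAIP, to the RZ subfamily.

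Total counts lay between 57796361 and 60881764 in M, 55039858 and 62962615 in ET, and 56921531 and 76242718 in Normal. Of 9 macrophage markers, 8 were present in every group (Cd68, Adgre1, Csf1r, Lyz2, Itgam, Fcgr1, Cd14 and Spi1). Mertk had 8 counts in M replicate 2 and 0 in every other library. The 9 summed to 2415 to 2467 FPKM in M, 2493 to 2673 in ET and 2023 to 2143 in Normal (FPKM, fragments per kilobase of gene, scaled to library size). By the test described below, 4 rose and 4 fell in M against Normal, and 4 rose and 3 fell in ET. Of all tested genes, 70.0% and 70.2% were called in these comparisons. Markers of other cells summed to far less than the macrophage markers, with values as follows. All 5 LPS response genes checked, Nos2 and Il6 among them, rose in M and in ET. Nos2, Il6, Il1b and Ptgs2 were under 1 FPKM in all Normal libraries and passed the filter described below through treated libraries alone. A rise was thus built into their passing. Tnf averaged 255 FPKM in M and 329 in ET, against 36.3 in Normal. The 6 fibroblast markers summed to 4.14 to 6.13 FPKM in M, 3.07 to 3.57 in ET and 0.0274 to 0.0731 in Normal, of which Lum made up 4.85, 3.04 and 0 FPKM on average. The 5 endothelial markers summed to 3.24 to 3.61 FPKM in M, 2.90 to 3.28 in ET and 0.780 to 0.965 in Normal, mostly Pecam1, which leukocytes also express. The 7 platelet and erythroid markers summed to 0.981 to 1.72 FPKM in M, 1.25 to 1.48 in ET and 0.0723 to 0.433 in Normal, and Hba-a1 among them was called higher in both treated groups (log2 change 5.88 in M and 5.89 in ET; adjusted p = 1.54e-06 and 1.52e-06). The 4 lymphocyte markers measured summed to 0.959 to 1.18 FPKM in M, 0.835 to 1.93 in ET and 0.181 to 0.619 in Normal. Granulocyte markers reached at most 0.589 FPKM in sum in M, 0.11 in ET and 0.0678 in Normal, and epithelial markers 0.033, 0.0229 and 0. The part of these transcripts in the results below was not tested. On the second principal component, which carried 2.28% of the variance, ET replicate 3 lay nearer to M than the other ET libraries did (-7.22, against -14.7 and -17.1 in ET and 11.5 to 13.8 in M).

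Treated cells carried a different mixture of RGS transcripts from that of untreated cells. Of the 8 genes, 7 passed the filter on low values (at least 1 FPKM in at least 3 libraries) and Rgs18 did not. Rgs1 and Rgs16 passed through treated libraries alone, so that a difference was built into their passing. In bulk RNA, fewer cells that express a gene and less of its RNA per cell cannot be told apart. All 7 tested genes differed from Normal in M and in ET. Rgs1, Rgs16 and Rgs3 rose, and Rgs2, Rgs10, Rgs14 and Rgs19 fell, with no overlap between libraries of Normal and either treated group. The background was high. Of 11536 genes tested, 70.0% were called in M against Normal (35.5% higher, 34.5% lower) and 70.2% in ET against Normal (35.0% higher, 35.2% lower), by edgeR's quasi-likelihood test at a Benjamini-Hochberg adjusted p under 0.05. Libraries of M and Normal had no overlap in 75.8% of genes (32.0% higher, 43.9% lower in M), and those of ET and Normal in 74.1% (31.2% higher, 42.8% lower in ET). A call for every tested RGS gene is therefore close to what most genes gave, and the sizes and directions carry the description. The median log2 change of the 7 genes was -0.39 in M and -0.33 in ET, against -0.01 and -0.02 over all tested genes.

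**Figure D1:**
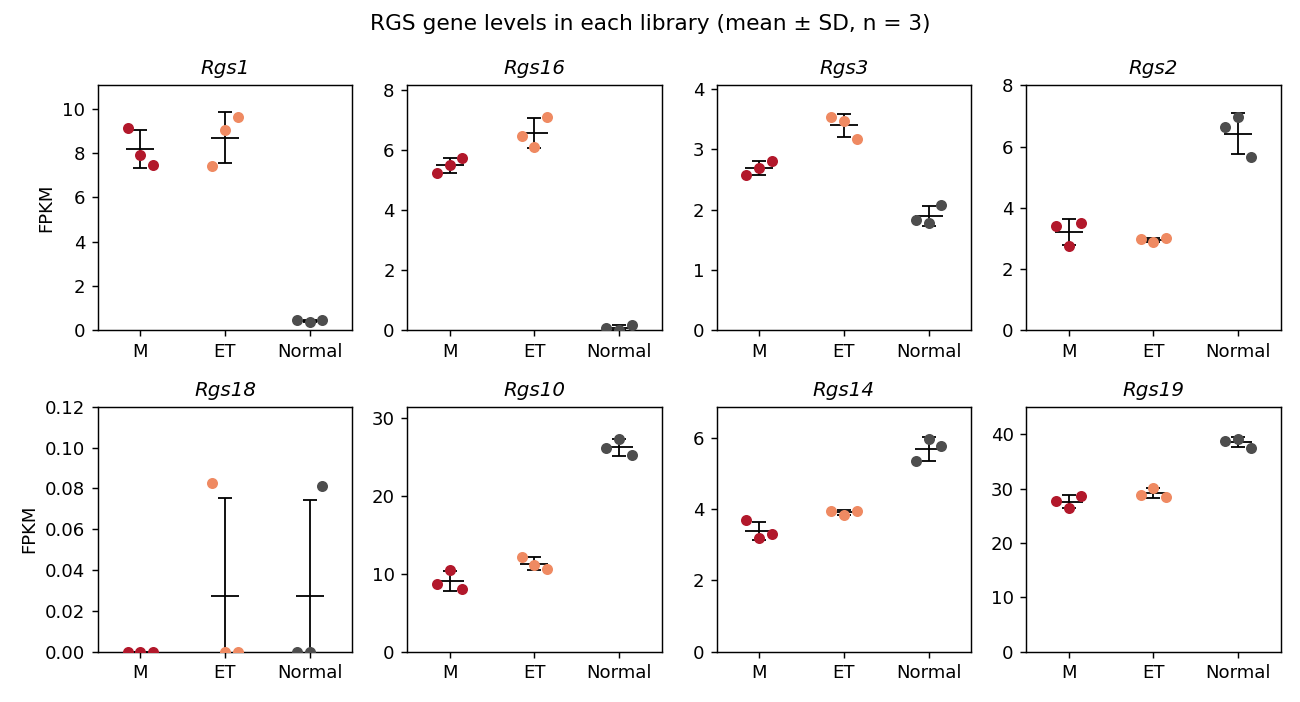
FPKM of each RGS gene (y axis, linear, a separate scale per panel) in the 3 libraries of M, ET and Normal (x axis). Points are libraries and bars the mean ± SD; Rgs1, Rgs16 and Rgs3 lie higher in all treated libraries than in Normal, Rgs2, Rgs10, Rgs14 and Rgs19 lie lower, and Rgs18 is at 0 in 7 of 9 libraries.

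Rgs16 and Rgs1 had the lowest FPKM of the tested members in Normal and rose most in both treated groups. Rgs16, an R4 protein that acts on Gi and Gq alpha subunits and is known as an activation-induced gene in lymphocytes (ENSMUSG00000026475, chromosome 1, 153740349 to 153745468, plus strand, GRCm38), had 5.25, 5.51 and 5.75 FPKM in M, 6.48, 6.11 and 7.11 in ET and 0.0773, 0 and 0.154 in Normal. Behind these stood 795 to 850 counts in M, 840 to 1079 in ET and 12, 0 and 22 in Normal, so the untreated level was near the lower end of what was counted. Its log2 change was 6.35 ± 0.43 in M (SE; adjusted p = 3.7e-08) and 6.59 ± 0.43 in ET (adjusted p = 2.61e-08), fitted folds of 81.3 and 96.4. Without Normal replicate 3 these were 7.35 and 7.60, and without Normal replicate 2 they were 5.66 and 5.91, so the size of the fold rests on a few Normal counts while the direction and call held. By size the rise placed 158th from the top of 11536 genes in M and 142nd in ET. An antisense gene on the opposite strand, Gm28513, overlaps Rgs16 and had at most 10 counts in any library; whether counting used the strand is not stated.

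Rgs1, an R4 protein that dampens chemokine receptor signalling in lymphocytes (ENSMUSG00000026358, chromosome 1, 144242296 to 144249242, minus strand), had 9.14, 7.92 and 7.49 FPKM in M, 7.41, 9.04 and 9.65 in ET and 0.443, 0.340 and 0.429 in Normal. Counts were 3290 to 4128 in M, 3476 to 4356 in ET and 184 to 205 in Normal. Every treated library was far above every Normal library, and M and ET libraries were interleaved. The log2 change was 4.42 ± 0.13 in M (adjusted p = 1.24e-11) and 4.50 ± 0.13 in ET (adjusted p = 1.11e-11), or 21.4-fold and 22.6-fold. It placed 251st and 232nd from the top.

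Rgs3 rose less, and its fitted rise was larger in ET than in M. That difference was called by edgeR (adjusted p = 0.0176), but in only 13 of 18 refits, as given below. This gene (ENSMUSG00000059810, chromosome 4, 62559847 to 62703018 in the table, plus strand) encodes short and long proteins that act on Gi and Gq alpha subunits. It had 2.58, 2.69 and 2.81 FPKM in M, 3.54, 3.47 and 3.18 in ET and 1.82, 1.78 and 2.08 in Normal. The 3 groups formed 3 separate ranges, with M in the middle. Libraries of M and ET had no overlap in 28.8% of all tested genes. Its log2 change from Normal was 0.60 ± 0.07 in M (adjusted p = 1.12e-05) and 0.92 ± 0.07 in ET (adjusted p = 1.81e-07), or 1.51-fold and 1.89-fold. The table gives 1 value for the gene, so its forms were not told apart, and the antisense gene Gm11209 that overlaps it was not analysed here.

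Rgs2 and Rgs10 showed the largest falls among the members. Rgs2 is an R4 protein with a known preference for the Gq class (ENSMUSG00000026360, chromosome 1, 143999338 to 144004161, minus strand). It had 3.41, 2.73 and 3.49 FPKM in M, 2.96, 2.88 and 3.00 in ET and 6.64, 6.97 and 5.67 in Normal. All treated libraries were below all Normal libraries, and the ET range lay inside that of M. The log2 change was -0.91 ± 0.11 in M (adjusted p = 8.81e-06) and -1.05 ± 0.11 in ET (adjusted p = 2.54e-06).

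Rgs10, a small R12 protein abundant in microglia and macrophages and known there as a restraint on inflammatory activation (ENSMUSG00000030844, chromosome 7, 128373621 to 128418758, minus strand), had 8.76, 10.5 and 8.05 FPKM in M, 12.2, 11.1 and 10.6 in ET and 26.2, 27.4 and 25.3 in Normal. The treated libraries were well below Normal, and those of M just below those of ET. Its log2 change was -1.44 ± 0.09 in M (adjusted p = 2.49e-08) and -1.14 ± 0.09 in ET (adjusted p = 2.24e-07), which are falls of 2.72-fold and 2.21-fold. It placed 256th from the bottom of 11536 genes in M and 448th in ET. A transcript on the same strand, Gm15503, overlaps the gene and had 2 to 41 counts, beside 873 to 3850 for Rgs10.

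Rgs14 and Rgs19 fell by less. Rgs14, an R12 protein that carries Ras-binding domains and a GoLoco motif beside its RGS domain (ENSMUSG00000052087, chromosome 13, 55369732 to 55384687, plus strand), had 3.68, 3.18 and 3.29 FPKM in M, 3.94, 3.82 and 3.95 in ET and 5.33, 5.97 and 5.75 in Normal. Its log2 change was -0.66 ± 0.08 in M (adjusted p = 8.37e-06) and -0.46 ± 0.08 in ET (adjusted p = 0.000176). Both treated groups were below Normal, with M below ET by a narrow margin.

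Rgs19, an RZ protein that acts on Gi alpha subunits (ENSMUSG00000002458, chromosome 2, 181688419 to 181693977, minus strand), had 27.7, 26.4 and 28.7 FPKM in M, 28.8, 30.2 and 28.4 in ET and 38.8, 39.2 and 37.5 in Normal. Its log2 change was -0.39 ± 0.04 in M (adjusted p = 4.73e-06) and -0.33 ± 0.04 in ET (adjusted p = 2.53e-05). Libraries of M and ET overlapped. It had the highest FPKM of the members in every group and the smallest change of the 7.

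Rgs18, an R4 protein best known from platelets and megakaryocytes (ENSMUSG00000026357, chromosome 1, 144752683 to 144775435, minus strand), had 12 counts in ET replicate 1, 11 counts in Normal replicate 3 and 0 counts in the other 7 libraries. At this depth it was not detected beyond such traces, and no fold was computed.

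Rgs2, Rgs1 and Rgs18 are neighbours on chromosome 1, all on the minus strand. The gap between Rgs2 and Rgs1 is 238.1 kb and that between Rgs1 and Rgs18 is 503.4 kb, while Rgs16 lies 8.96 Mb beyond. Genes of this cluster did not move together: Rgs2 fell, Rgs1 rose and Rgs18 stayed at traces in all 3 groups. Rgs13, which lies between Rgs2 and Rgs1, had 4 counts in ET replicate 1, 4 in Normal replicate 2 and 0 in the other libraries.

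Promoters of Rgs16 and Rgs2 are shown because they belong to an R4 gene that rose and one that fell. Each run is the 250 bases before the RefSeq start (GRCm38.p6), 5′ to 3′ on the gene's strand, chr1:153740103-153740352 plus for Rgs16 and chr1:144004150-144004399 minus for Rgs2. Capitals mark CCAAT boxes (CCAAT) and GC boxes (GGGCGG) on either strand.
Rgs16: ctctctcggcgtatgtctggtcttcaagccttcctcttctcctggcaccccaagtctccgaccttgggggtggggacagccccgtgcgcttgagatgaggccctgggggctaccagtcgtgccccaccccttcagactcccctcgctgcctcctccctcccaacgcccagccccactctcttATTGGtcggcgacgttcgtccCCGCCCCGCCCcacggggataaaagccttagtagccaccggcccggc
Rgs2: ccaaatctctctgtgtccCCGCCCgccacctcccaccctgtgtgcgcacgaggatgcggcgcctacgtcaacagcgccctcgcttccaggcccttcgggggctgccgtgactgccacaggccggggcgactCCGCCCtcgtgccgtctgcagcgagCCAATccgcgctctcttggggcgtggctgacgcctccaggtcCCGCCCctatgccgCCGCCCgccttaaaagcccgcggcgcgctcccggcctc
Rgs16 held 1 CCAAT box, on the reverse strand 68 bases before the start, and 2 overlapping GC boxes from 47 bases before it. Rgs2 held 1 CCAAT box 94 bases before the start and 4 GC boxes. Among 32851 promoter windows of this length, 33.9% held a CCAAT box and 32.7% a GC box. The letters of an AP-1 site (TGANTCA), a cyclic AMP response element (TGACGTCA), a TATA box (TATAAA) or the 10-letter NF-kB motif were in neither window, against 6.75%, 1.55%, 12.4% and 7.25% of all windows. A match or its absence describes these letters and not the binding of a factor. RefSeq windows were found for 5 of the 8 genes (Rgs2, Rgs3, Rgs10, Rgs16 and Rgs19).

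FPKM divide by a length per gene, so setting the members' levels beside each other depends on the lengths used. Lengths from the union of GENCODE M21 exons gave nearly the same shares of the summed level (13.69% for Rgs1 in M, against 13.7%). That union was 6947 bases for Rgs1, equal to its whole span, and 10801 for Rgs3. For the other members it was 1711 to 4239 bases. Levels of Rgs1 and Rgs3 may therefore be set too low beside the rest. The orders below are by FPKM. In M the order was Rgs19, Rgs10, Rgs1, Rgs16, Rgs14, Rgs2 and Rgs3, where libraries overlapped between Rgs10 and Rgs1, between Rgs14 and Rgs2 and between Rgs2 and Rgs3. In ET it was Rgs19, Rgs10, Rgs1, Rgs16, Rgs14, Rgs3 and Rgs2, each separate from the next. In Normal it was Rgs19, Rgs10, Rgs2, Rgs14, Rgs3, Rgs1 and Rgs16, where Rgs2 overlapped with Rgs14. The summed level of the 8 genes was 60.5, 58.9 and 59.6 FPKM in M, 65.4, 66.6 and 65.9 in ET and 79.3, 81.8 and 77.0 in Normal. It was lowest in M and highest in Normal with no overlap. FPKM do not carry the scaling factors (TMM) that the log2 changes do. These factors were 0.971 to 0.980 in M, 0.983 to 0.987 in ET and 1.036 to 1.045 in Normal. The scales therefore differ: Rgs19 changed by -0.39 in M over Normal with the factors and by -0.485 without them.

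The makeup of the summed level differed mainly in Rgs10, Rgs1 and Rgs16. Rgs10 held 15.3 ± 2.27% of the summed level in M and 17.1 ± 1.36% in ET, against 33.2 ± 0.375% in Normal (SD, n = 3). Rgs1 held 13.7 ± 1.29% in M and 13.2 ± 1.69% in ET, against 0.511 ± 0.0823% in Normal. Rgs16 held 9.22 ± 0.498% in M and 9.96 ± 0.804% in ET, against 0.0992 ± 0.1% in Normal. Rgs19 kept the leading share, at 46.3 ± 1.76% in M, 44.2 ± 1.11% in ET and 48.6 ± 0.497% in Normal. Shares are of transcripts per length and say nothing of protein.

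**Figure D2:**
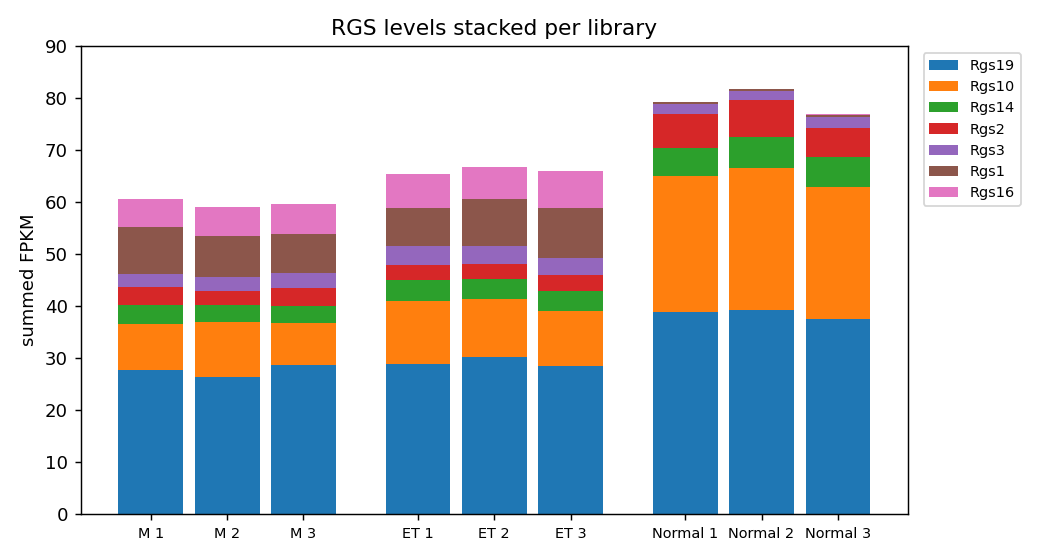
FPKM of 7 RGS genes stacked per library (y axis, linear, from 0) for the 3 libraries of M, ET and Normal (x axis); Rgs18 is left out at 0 to 0.0824 FPKM. Rgs10 takes a smaller part in treated libraries, Rgs1 and Rgs16 a larger one, and the stack is lower in M (58.9 to 60.5 FPKM) and ET (65.4 to 66.6) than in Normal (77.0 to 81.8).

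Setting M against ET asks how the extract changed the response to LPS, in the direction that the labels leave unsettled. Of the 7 genes, 1 was called, Rgs3, which was lower in M than in ET by 0.32 ± 0.07 on the log2 scale (log2 change -0.32, 1.25-fold; adjusted p = 0.0176). Over all genes 9.08% were called in this comparison, 4.97% higher and 4.12% lower in M. Rgs10 (log2 change -0.30 ± 0.09, adjusted p = 0.0703), Rgs16 (-0.24 ± 0.29, adjusted p = 0.643) and Rgs14 (-0.20 ± 0.08, adjusted p = 0.146) did not pass, although all 3 M libraries lay below all 3 ET libraries in FPKM for each of them, as for Rgs3. Such a gap in this direction was found in 4 of the 7 members and in 16.0% of all genes (28.8% in either direction). Rgs1 (-0.08 ± 0.11, adjusted p = 0.706), Rgs19 (-0.07 ± 0.04, adjusted p = 0.389) and Rgs2 (0.13 ± 0.11, adjusted p = 0.493) did not pass and their libraries overlapped. The SE of Rgs16 rested in part on the Normal libraries, which share its estimate of spread. An edgeR fit of the 6 libraries of M and ET gave Rgs16 -0.25 ± 0.09 (adjusted p = 0.137). The median log2 change of the 7 was -0.20, against 0.00 over all genes (0.003 before rounding). The Rgs3 call was not firm. It ended without M replicate 1, M replicate 2, ET replicate 1 or ET replicate 2 (adjusted p = 0.0709, 0.0553, 0.0656 and 0.0675), and Rgs10 was called without M replicate 2 (adjusted p = 0.0203), without ET replicate 3 (adjusted p = 0.0379) and by DESeq2 (adjusted p = 0.0168).

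**Figure D3:**
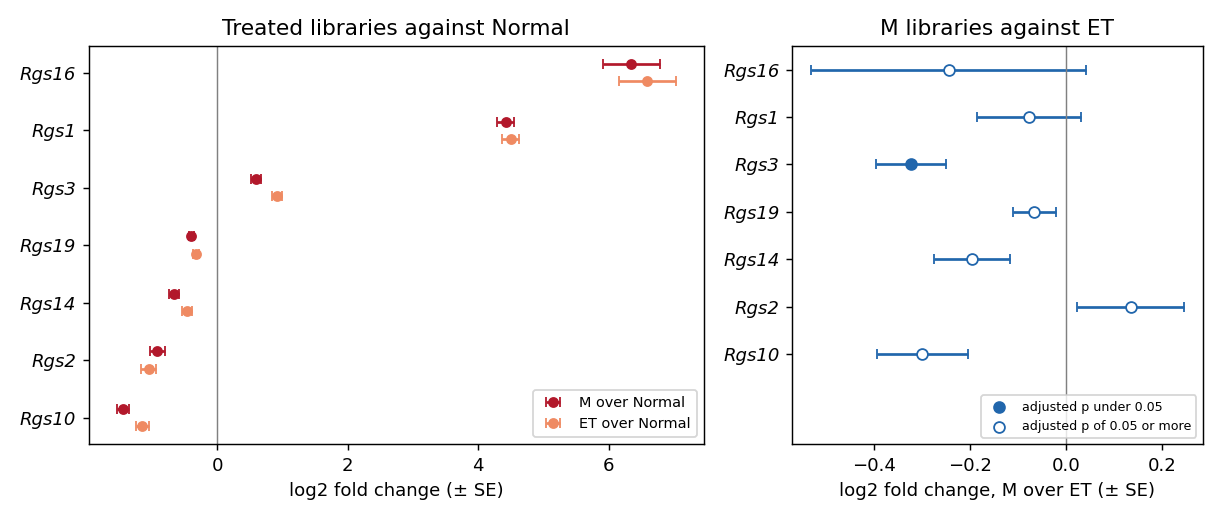
Log2 fold changes (x axes, with SE as bars) of the 7 tested RGS genes (y axis), for M and ET over Normal on the left and for M over ET on the right. Changes from Normal run from -1.44 (Rgs10 in M) to 6.59 (Rgs16 in ET); between M and ET all lie within -0.32 and 0.13, and the filled point is Rgs3, with adjusted p = 0.0176.

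The other genes with an RGS or related homology domain moved in both directions. Of 20 such genes, 12 were tested, of which 3 rose and 7 fell in M, and 3 rose and 6 fell in ET (median log2 change -0.15 in M and -0.14 in ET). Over all tested genes 35.5% rose and 34.5% fell in M, and 35.0% rose and 35.2% fell in ET. The other 8 genes lay under the filter. Arhgef12, a guanine nucleotide exchange factor driven by the G12 and G13 alpha subunits, rose to 7.18 FPKM in M and 7.07 in ET, against 2.99 in Normal (log2 change 1.35 ± 0.05 and 1.32 ± 0.05; adjusted p = 2.05e-10 and 2.65e-10). Its relatives Arhgef1 and Arhgef11 fell, Arhgef1 to 19.0 FPKM in M and 20.0 in ET against 31.0 in Normal, and Arhgef11 by a log2 change of -0.45 in M and -0.52 in ET. Rgs11, of the R7 subfamily, fell to 1.38 FPKM in M and 1.32 in ET, against 2.21 in Normal (log2 change -0.59 ± 0.15 and -0.66 ± 0.15; adjusted p = 0.00431 and 0.0021). Among the receptor kinases Grk5 rose (log2 change 0.46 in M and 0.49 in ET), Grk6 fell (-0.34 and -0.18) and Grk2 did not pass (-0.06 and 0.02, adjusted p = 0.195 and 0.633). The sorting nexin Snx13 rose (0.37 and 0.23), Snx25 fell (-0.29 and -0.29) and Snx14 did not pass (0.08 and -0.08, adjusted p = 0.34 and 0.353). The anchoring protein Akap10 fell (-0.19 and -0.22), and Axin1, a scaffold of Wnt signalling, fell in M (-0.11, adjusted p = 0.0397) and did not pass in ET (-0.09, adjusted p = 0.0817), a difference that by itself shows none between M and ET. Between M and ET the smallest adjusted p among these 12 was 0.0594, for Grk6.

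Rgs9, Rgs8 and Rgs20, all under the filter, were counted almost solely in treated libraries. Rgs9, of the R7 subfamily, had 72, 84 and 103 counts in M, 38, 45 and 99 in ET and 0 in all 3 Normal libraries. Rgs8 had 13, 23 and 45 counts in M, 29, 22 and 45 in ET and 0 in Normal. Rgs20, an RZ relative of Rgs19, had 88, 125 and 117 counts in M, 142, 134 and 80 in ET and 9, 4 and 0 in Normal. Per length these 3 genes had at most 0.535 FPKM in any library.

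Among the G proteins that RGS proteins act on, all 3 tested Gq class subunits fell, of 4 in the table (median log2 change -0.81 in M and -0.68 in ET). Of all tested genes 34.5% fell in M and 35.2% in ET. Gna15, found in blood cells, averaged 7.27 FPKM in M and 9.77 in ET, against 16.5 in Normal (log2 change -1.10 ± 0.07 and -0.68 ± 0.07). It was also lower in M than in ET (log2 change -0.41, adjusted p = 0.00595). Gna11 fell by 0.81 in M and by 0.73 in ET on the log2 scale, and Gnaq fell by 0.45 in M and by 0.42 in ET. Of the inhibitory class, Gnai2 fell to 95.1 FPKM in M and 99.7 in ET, against 149 in Normal, and Gnai3 rose to 55.9 and 52.2, against 48.1. Among the other alpha subunits Gna13 rose (log2 change 0.57 in M and 0.35 in ET, and 0.23 in M over ET with adjusted p = 0.0153), Gnas, of the stimulatory class, fell (-0.22 and -0.18), and the third tested gene did not pass. Of 7 tested beta and gamma subunits 4 rose and 1 fell in each treated group, a share called that is near the 70.0% in M and 70.2% in ET over all genes, with Gng10 rising to 54.4 FPKM in M and 59.9 in ET, against 39.6 in Normal.

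**Figure D4:**
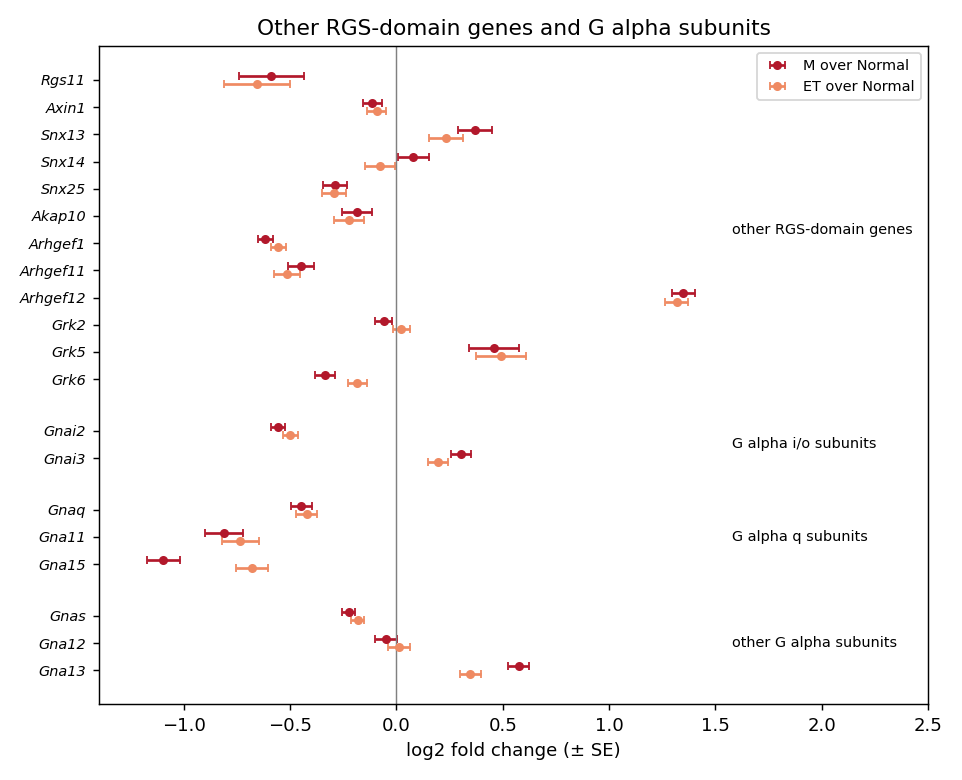
Log2 fold change over Normal (x axis, with SE as bars) of the 12 other tested genes with an RGS or related domain and of 8 G alpha subunits (y axis, grouped by class), for M and ET. Arhgef12 stands out at 1.35 and 1.32, and the 3 Gq class subunits lie between -1.10 and -0.42.

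Around the G protein cycle, 2 of 7 tested accessory genes rose in M and 4 in ET, against 35.5% and 35.0% of all tested genes. The 2 further genes in ET, Gpsm1 and Gpsm2, were not called between M and ET (adjusted p = 0.221 and 0.366). Gpsm3, a GoLoco protein of leukocytes that binds Gi subunits, stood at 28.7 FPKM in M and 30.8 in ET, against 17.4 in Normal, and Ric8a, a chaperone and exchange factor of alpha subunits, at 6.60 and 6.59, against 4.40. Of 5 tested arrestin family genes 4 fell in each treated group, against 34.5% of all tested genes in M and 35.2% in ET. Arrb1, which uncouples receptors from G proteins, had 8.75 FPKM in M and 9.20 in ET, against 19.1 in Normal. Arrb2 rose in ET (log2 change 0.25) and was lower in M than in ET (-0.18, adjusted p = 0.0242). Of 13 tested effectors 4 rose and 5 fell in M, and 5 rose and 6 fell in ET, where 70.0% and 70.2% of all tested genes were called. Adenylyl cyclases went both ways, Adcy2 at 4.75 FPKM in M and 5.26 in ET against 2.17 in Normal, and Adcy6 at 0.524 and 0.520 against 1.76. Pik3r6, a regulatory subunit of phosphoinositide 3-kinase gamma, fell to 3.60 FPKM in M and 3.48 in ET, against 8.15 in Normal. Prex1, an exchange factor activated by beta-gamma subunits, was the effector called between M and ET, at 13.9 FPKM in M and 12.3 in ET (log2 change 0.18, adjusted p = 0.00473).

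Most tested receptors upstream of these G proteins rose, many of them admitted by the filter through treated libraries alone. Of 18 tested chemoattractant, lipid and nucleotide receptors, 12 rose and 4 fell in M, and 13 rose and 4 fell in ET, with median log2 changes of 2.46 and 2.45. Over all tested genes 35.5% rose and 34.5% fell in M, and 35.0% rose and 35.2% fell in ET. A receptor under 1 FPKM in all Normal libraries could be tested solely because treated cells expressed it. Such genes add to the rises and raise the medians given here. They were Ccr1, Ccr7, Ccrl2, C3ar1, Fpr1, Adora2a, Adora3 and Hcar2, while S1pr1 passed through Normal libraries alone. Of the rest, C5ar1, Ptger4, P2ry2 and Adora2b rose in both treated groups, and Cx3cr1 and S1pr2 fell in both. Ptafr rose in ET alone, P2ry6 fell in M alone and Lpar6 fell in ET alone. Ccr7, the receptor that guides cells to lymph nodes, had 21.4 FPKM in M and 5.55 in ET and was listed at 0 in Normal. Fpr1, a receptor for formylated peptides, had 2.18 FPKM in M and 2.07 in ET, with 0 in Normal, and the chemokine receptor Ccr1 had 2.65 and 2.66, against 0.00571. Cx3cr1, the fractalkine receptor, fell to 19.0 FPKM in M and 20.1 in ET, against 105 in Normal. The sphingosine-1-phosphate receptors S1pr1 (0.180 FPKM in M and 0.146 in ET, against 8.06 in Normal) and S1pr2 (3.00 and 3.72, against 6.57) fell as well. In M over ET, Ccr7 (log2 change 1.96), Ccrl2 (1.19) and Lpar6 (0.43) were higher, and Ptafr, the receptor for platelet-activating factor (-0.57), S1pr2 (-0.30) and the nucleotide receptor P2ry6 (-0.24) were lower.

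For each member the tested genes with the closest profile over the 9 libraries were found by the root mean square difference of log2 CPM (counts per library size) after centring. Melk (0.0354) was among the closest to Rgs19. Rgs14 was closest to Rfc4 (0.0617) and Gatb (0.0623), and Rgs3 to St14 (0.0635) and Bbs9 (0.0640). Rgs2 was closest to Zfand1 (0.0909) and Pik3r1 (0.0958), and Rgs10 to Slc43a2 (0.103) and Inf2 (0.104). Rgs1 was closest to Dmpk (0.160) and Csf1 (0.183). The nearest profiles to Rgs16, Zbp1 (0.515) and Gpr18 (0.535), were much less like it. These are descriptions over libraries that fall into treated and untreated sets.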

How the data were processed

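The libraries were made from poly(A) RNA with a strand-marking (dUTP) step, per the labels' protocols. Trimming and alignment tools in the submitters' processing notes were cutadapt 1.9 and HISAT2 2.2.1, with StringTie 2.1.6. DESeq2 and edgeR are listed there without version. The counting tool, its strand setting and the genome build are not given in the sources used here. Gene coordinates matched GENCODE M21 (GRCm38) exactly at both ends for 23547 of 26146 genes and for 7 of the 8 RGS genes (Rgs3 ends at 62704001 there).

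The counts deposited by the authors are whole numbers per gene and library. A value of 4 occurred 7994 times, against 3806 for 3 and 2440 for 5, so 1 count may not be 1 fragment, and no counting intervals are given. The FPKM deposited by the authors kept a fixed ratio to the counts for each gene, after a factor per library, to within a median log2 range of 0.00164 over 9820 genes.

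Table columns were assigned through the column names that the labels cite. Counts were tested with edgeR 4.0.16 in R 4.3.3 (TMM factors, 1 fit of the 3 groups, quasi-likelihood test, Benjamini-Hochberg adjustment over the 11536 genes that reached 1 FPKM in 3 or more libraries, threshold 0.05), after a check on simulated data. Standard errors are the log2 change over the root of the F statistic. limma 3.58.1 and DESeq2 1.42.0 served as alternatives. The 8 genes, the pathway lists and the tests were chosen with earlier results of these data known. Named genes are the 8, the other tested genes with an RGS or related domain, up to 3 called genes per list, comparison and direction, and the 2 genes of closest profile, 1 of which is not reported here. Motifs, counts of genes under the filter, the cluster on chromosome 1 and some further list members were chosen after their values were seen. Same-numbered libraries of different groups did not deviate together (correlations of -0.0503 to 0.0756), so the numbers were not taken as pairs.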

Additional observations from a re-analysis of the deposited data

How the results depend on the processing

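In M and in ET against Normal, all 7 tested RGS genes kept direction and call under each of the 18 refits (other scalings, filters, tools, a replicate block, fits of 6 libraries, each library left out), with 7 called also at adjusted p under 0.01. On the log2(FPKM + 1) scale, which compresses low genes, Rgs16 changed by 2.60 in M and 2.81 in ET, and Rgs1 by 2.71 and 2.78. A threshold of 1.5-fold left 6 RGS genes in M and 5 in ET, and 3531 and 3521 of all genes.

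Between M and ET, where edgeR called 1 RGS gene and 3 had an unadjusted p under 0.05, DESeq2 called 2, limma on log2(FPKM + 0.1) called 0, adjusted p under 0.01 left 0 and 1.5-fold left 0. Leaving out 1 library gave 0 to 2 RGS genes and 536 to 1828 of all genes, against 1048, with the highest count without ET replicate 3. All genes called were 615 with no filter, 1682 by DESeq2, 386 at adjusted p under 0.01 and 149 at 1.5-fold. With the replicate block 922 genes and 1 RGS gene were called. Rgs3 was called in 13 of 18 refits, with log2 changes of -0.37 to -0.25 and adjusted p of 0.000726 to 0.0709; limma on log2(FPKM + 0.1) gave 0.057. Rgs10 was called in 3 of 18. Rgs1, never called here, changed sign without ET replicate 3 (0.000236; from -0.19 to 0.000236 when 1 library was left out). The cause of these shifts was not tested, except that leaving out libraries lowers the number of samples.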
